A study of Macaca mulatta with 4 samples.

Results

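The mitotic spindle and kinetochore genes of RF/6A cells are described here. They were chosen by symbol: every CENP gene with a one-letter suffix, 11 named mitotic kinesins, the Polo-like kinases PLK1 to PLK4, and 25 further named genes of the spindle, the spindle checkpoint and cell division. The rule gives 61 genes, of which 58 were matched to one of the 21314 rows of the count table. MAD2L1, SPC25 and CENPX were matched to no row and are not analysed here. The choice used names and not measured values.

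RF/6A is a rhesus macaque (Macaca mulatta) line that its labels call chorioretinal, obtained from a cell repository and long used as an endothelial model. The study asked whether it has the properties of endothelium. Total RNA from 4 samples, titled as static, was sequenced and is called libraries 1 to 4 by the number in the title. All 4 were grown alike in Dulbecco's modified Eagle medium with 10% heat-inactivated fetal bovine serum, penicillin and streptomycin, at 37 °C in 5% CO2, with no genetic change or added agent named. They form 1 group from 1 cell line, so there was no contrast between conditions and no test between groups. The labels do not say whether the libraries came from separate cultures, and the SDs below measure only the spread between these samples, which may be technical.

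At mitosis the replicated chromosomes condense, and a kinetochore is built on each centromere, the stretch of chromatin marked by the histone variant CENPA. Inner kinetochore proteins hold the centromere, and the NDC80 complex reaches out to bind spindle microtubules. Until every kinetochore is attached, the spindle checkpoint restrains CDC20, the activator of the anaphase-promoting complex. Its release leads to destruction of securin and cyclin B, separation of the chromatids and division of the cell. Transcripts of many of these genes peak in G2 and mitosis, so their summed level in a culture is known to follow the share of dividing cells. In bulk RNA, a smaller share of cells in mitosis, less transcript per dividing cell and a shift of a whole library cannot be told apart.

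The libraries held between 20366946 and 20550610 counts. Library 2 stood apart across the whole table. A chi-square statistic over genes, divided by its degrees of freedom, lay between 12.3 and 19.3 when any pair of libraries 1, 3 and 4 was compared. It lay between 418 and 495 when one of the pair was library 2, and all pairs differed by more than sampling noise. Ribosomal protein genes took 14.9% of the counts of library 2 and 6.04% to 6.62% of the others. Values are therefore given for each library, and summaries with and without library 2. Of 8 endothelial markers 1, PECAM1, reached 1 count-per-million (CPM) in every library and 2 did without library 2, whereas all 7 fibroblast markers did. The summed level of the endothelial list was 5.12 CPM in library 2 and 6.38 to 8.31 CPM in the others, and TIE1 was at 0 in libraries 2 and 4. Of 4 matched markers of retinal pigment epithelium 3 reached 1 CPM in every library, and 2 did with plain CPM.

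All 58 matched members were expressed, taking as expressed a level of at least 1 CPM in every library after scaling by the trimmed mean of M-values (TMM). Of all rows of the table, 52.9% met that mark, and of rows paired with a symbol 64.2% did. At 10 CPM or more in every library stood 41 members (70.7%), against 32.3% of all rows, and at 100 CPM or more stood 7 members (12.1%), against 5.28%. The 7 were TOP2A, MKI67, PLK2, ANLN, KIF20A, CDC20 and KIF2C. Long transcripts collect more counts than short ones, and no transcript lengths were used here. A CPM value thus tells how deeply a gene was counted, and the values of different genes give no order of abundance.

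**Figure D1:**
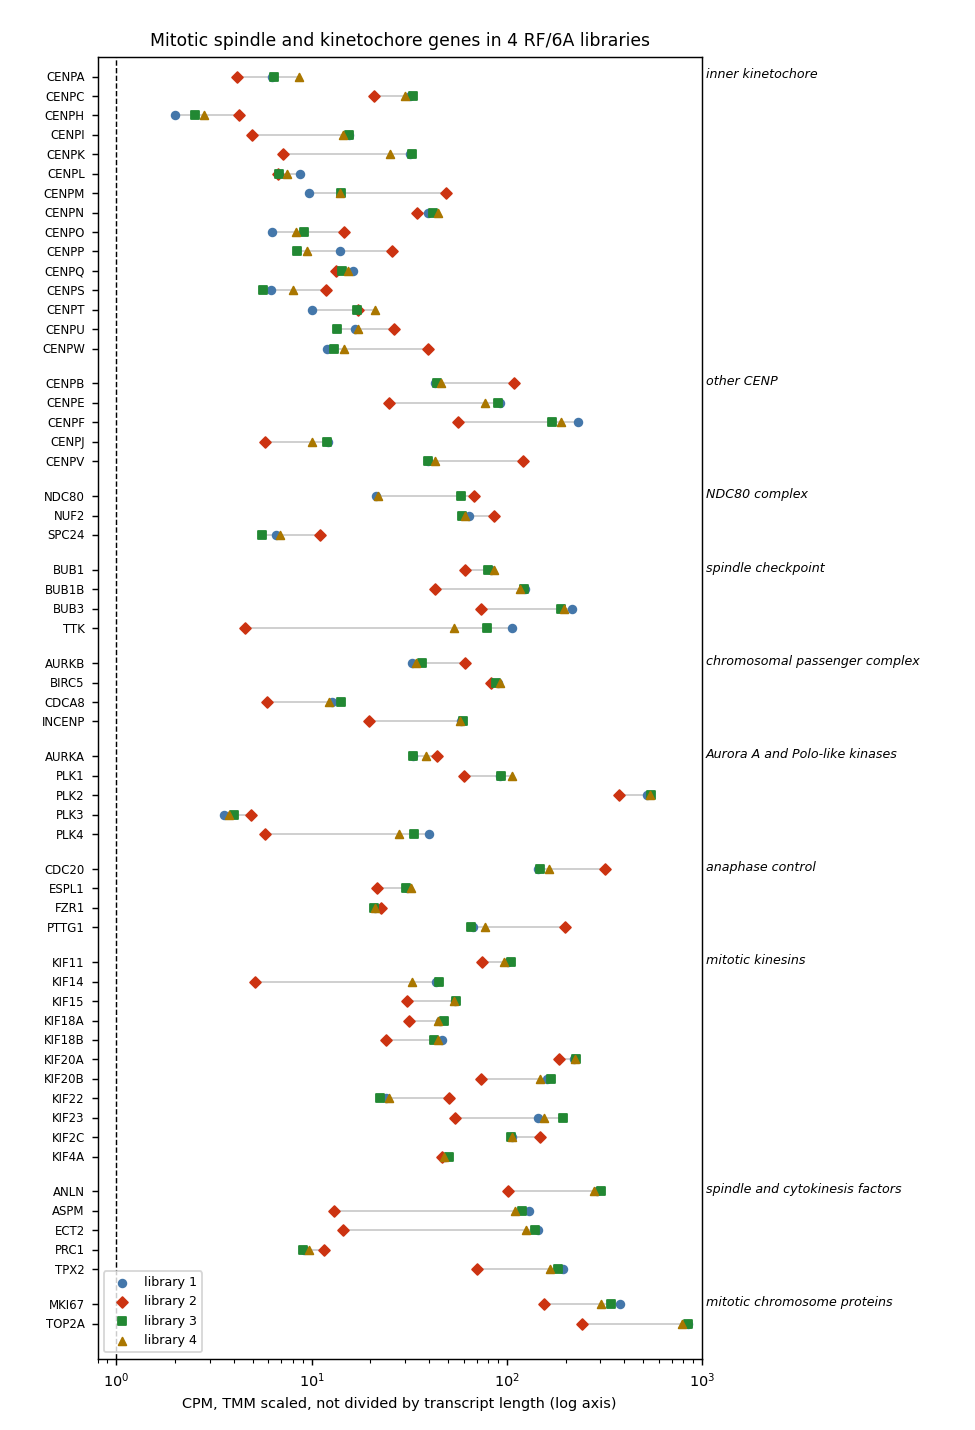
Each marker is the level of 1 of the 58 members in 1 of the 4 RF/6A libraries, in TMM-scaled CPM on a log axis, with genes grouped by role, a grey line from the lowest to the highest library, and a dashed line at 1 CPM. All markers lie right of the dashed line; library 2 (red diamonds) is the lowest library for 36 members and the highest for 21.

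Taken as a group, the members measured a median of 5.45, 5.07, 5.49 and 5.48 log2(CPM + 0.5) in libraries 1 to 4, or 5.37 ± 0.20 (SD, n = 4) and 5.47 ± 0.02 without library 2 (n = 3). The median of all rows with a count was 3.25, 2.80, 3.23 and 3.25 in libraries 1 to 4, or 3.13 ± 0.22. That of the 12453 genes with a mean of 1 CPM or more was 4.48, 4.21, 4.48 and 4.46. Summed, the 58 genes took 0.583%, 0.278%, 0.582% and 0.552% of the counts of the 4 libraries. For the members library 2 was the low one on both measures, and the other 3 lay close together. Its median was the lowest over all rows as well, so a low median there was not particular to the members.

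TOP2A and MKI67 are classic markers of dividing cells and made up a large part of that sum. TOP2A, the topoisomerase that untangles sister chromatids, measured 843, 242, 845 and 789.6 CPM in libraries 1 to 4. MKI67, the Ki-67 antigen that coats mitotic chromosomes, measured 379, 155, 342 and 305 CPM. Both were lowest in library 2, TOP2A by 3.40-fold and MKI67 by 2.19-fold. These folds, and all those below, compare library 2 with the geometric mean of the other 3 on the CPM + 0.5 scale.

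The inner kinetochore was represented by 15 of the 16 genes under the rule, all expressed, with means between 2.89 CPM for CENPH and 39.98 CPM for CENPN. CENPR carries the symbol ITGB3BP and so fell outside the rule, with 338, 378, 377 and 376 counts in libraries 1 to 4. CENPA, the centromeric histone, measured 6.23, 4.13, 6.42 and 8.59 CPM. CENPC, which links that histone to the outer kinetochore, measured 31.8, 20.9, 32.9 and 30.2 CPM. Both were lowest in library 2, with log2 ratios to the other libraries of -0.70 and -0.59. CENPN, which reads the CENPA nucleosome, varied little with TMM, at 39.3, 34.6, 41.8 and 44.2 CPM. Its log2 ratio of -0.27 became -0.70 with plain CPM. CENPH had the fewest counts of any member, 44, 69, 56 and 62, summing to 231 (exact 95% Poisson limits 202 to 263), and measured 2.89 ± 0.967 CPM (SD, n = 4).

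Library 2 was lowest for 7 of the 15 genes and highest for 7, a split near that of the whole table, where it was lowest for 48% and highest for 43.8% of genes with a mean of 1 CPM or more. CENPM, a small protein of the layer around CENPH, CENPI and CENPK, measured 9.69, 48.98, 14.1 and 13.97 CPM and was 3.83-fold higher there. CENPW, the small histone-fold partner of CENPT, measured 11.97, 39.7, 13.07 and 14.7 CPM. Against these, CENPK was 3.96-fold lower at 31.98, 7.16, 32.8 and 25.2 CPM, and CENPI 2.88-fold lower at 15.6, 4.93, 15.5 and 14.4 CPM. CENPM, CENPI and CENPK belong to the same subcomplex, and their counts in library 2 lay outside the range of the other libraries on opposite sides. The median log2 ratio of the group in library 2 was 0.16 with TMM and -0.27 with plain CPM. In human, transcripts that join CENPS to its neighbour are known, so the CENPS counts are less certain.

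The other CENP genes lie outside the inner kinetochore group and differ in function. CENPE, the motor that carries chromosomes to the spindle equator, measured 91.8, 24.9, 89.9 and 77.5 CPM. CENPF, a large protein of the outer kinetochore, measured 233, 55.95, 171 and 189 CPM. Library 2 was the lowest for both, by 3.42-fold and 3.48-fold, and likewise for the centriole gene CENPJ, by 1.88-fold. CENPB, which binds centromeric satellite DNA, measured 43.0, 109, 44.03 and 45.9 CPM, and CENPV, a factor of centromere organisation and cytokinesis, 39.6, 120.4, 39.4 and 42.8 CPM. These 2 were the ones highest in library 2, while their other 3 libraries agreed within a few CPM. A near copy of CENPV, CENPVL3, had no count in any library.

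The NDC80 complex, the main microtubule grip of the kinetochore, was represented by NDC80, NUF2 and SPC24. NUF2 measured 64.1, 86.5, 58.7 and 61.1 CPM and SPC24 6.60, 11.1, 5.57 and 6.92 CPM, both highest in library 2 with close values in the other 3. With plain CPM library 2 was highest for only 1 of the 3 genes, and the log2 ratio of NUF2 fell from 0.49 to 0.05. Of all genes, 43.8% were highest in library 2 with TMM and 31.4% with plain CPM. NDC80 itself measured 21.4, 67.8, 58.5 and 21.9 CPM, so libraries 2 and 3 were high and libraries 1 and 4 low. NDC80 and NUF2 form 1 dimer in the complex, and NUF2 did not share that split.

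All 4 matched genes of the spindle checkpoint were lowest in library 2, as were 48% of all genes. TTK, the MPS1 kinase that starts checkpoint signalling at unattached kinetochores, measured 106, 4.56, 78.8 and 53.7 CPM, a 15.2-fold lower level in library 2 and the farthest of any member. BUB1B, the BubR1 protein of the mitotic checkpoint complex, measured 124, 42.9, 123 and 117 CPM, and BUB3, the partner of both BUB proteins, 216, 73.8, 189 and 195 CPM. BUB1, the kinase that recruits them to the kinetochore, was the mildest, at 82.8, 61.01, 80.01 and 86.4 CPM. TTK was also uneven without library 2, whereas BUB1 and BUB1B each agreed within 1.08-fold in libraries 1, 3 and 4.

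The chromosomal passenger complex corrects faulty attachments and later guides cytokinesis. All 4 subunits were expressed, and they did not move as a unit in library 2. Its kinase AURKB measured 32.6, 60.9, 36.8 and 34.2 CPM and was highest in library 2, by 1.75-fold. The scaffold INCENP, which activates that kinase, measured 58.3, 19.7, 59.6 and 57.9 CPM and was 2.92-fold lower. The 2 targeting subunits differed as well. BIRC5, or survivin, was nearly level with TMM at 89.7, 83.3, 87.6 and 91.9 CPM, but its log2 ratio of -0.11 became -0.55 with plain CPM. CDCA8, or borealin, was 2.11-fold lower in library 2 at 12.8, 5.92, 14.1 and 12.3 CPM.

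Among the other mitotic kinases, PLK1, which acts from mitotic entry to cytokinesis, measured 92.1, 60.1, 93.4 and 106 CPM. AURKA, the kinase of the spindle poles, measured 33.2, 43.9, 33.1 and 38.6 CPM. PLK1 was lowest in library 2 and AURKA highest, though plain CPM turned the sign of the AURKA ratio from 0.33 to -0.11. PLK4, the master kinase of centriole duplication, measured 39.9, 5.80, 33.4 and 28.1 CPM, 5.39-fold lower in library 2. PLK2 and PLK3 share the Polo-like fold but are known mainly as genes of the stress and growth factor response. PLK2 had between 6119 and 12198 counts, or 520, 377, 548 and 545 CPM, and PLK3 between 78 and 89 counts, or 4.04 ± 0.583 CPM (SD, n = 4), with 4.87 CPM in library 2.

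Of the 4 genes of anaphase control, library 2 lay above the other libraries by 1 log2 unit or more for CDC20 and PTTG1. CDC20, the mitotic activator of the anaphase-promoting complex, measured 145, 317, 148 and 165 CPM, 2.08-fold higher in library 2. PTTG1, or securin, the inhibitor that the complex destroys, measured 67.01, 198, 65.4 and 77.02 CPM, 2.82-fold higher. ESPL1, or separase, the protease that securin holds back, was 1.43-fold lower at 30.7, 21.6, 30.3 and 32.3 CPM. FZR1, the activator that replaces CDC20 after mitosis, measured 21.06, 22.6, 20.8 and 21.2 CPM, and its log2 ratio of 0.11 became -0.33 with plain CPM. For the 4 genes together the median ratio was 0.58 with TMM and 0.14 with plain CPM, again on the log2 scale.

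All 11 mitotic kinesins were expressed, and 9 of them were lowest in library 2 (48% of all genes were with TMM and 59.9% with plain CPM). KIF20A, a motor of the central spindle, measured 220.1, 185, 226 and 224 CPM, and KIF11, the motor that pushes the spindle poles apart, 101, 74.3, 105 and 97.05 CPM. KIF14, a motor needed to finish cytokinesis, was 7.17-fold lower in library 2, at 43.3, 5.12, 44.7 and 32.6 CPM. KIF23, of the centralspindlin complex, measured 144, 54.4, 193 and 155 CPM. The exceptions were KIF2C, which takes microtubules apart at the kinetochore, and KIF22, which pushes chromosome arms. KIF2C measured 107, 147, 106 and 107 CPM and varied least of all members over libraries 1, 3 and 4, with a coefficient of variation of 0.544%. Its counts were 2345, 2386, 2351 and 2356. At such counts sampling noise alone gives a wider spread than 0.544%, so that closeness is not read as a trait of the gene. The log2 ratio of KIF2C in library 2, 0.47, became 0.02 with plain CPM. KIF22 measured 24.02, 50.5, 22.4 and 25.05 CPM.

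Factors of spindle assembly and cytokinesis included some of the largest departures. ECT2, the exchange factor that switches on RHOA at the division site, measured 144, 14.5, 140.0 and 126 CPM, 9.12-fold lower in library 2. ASPM, a spindle pole protein, measured 130.4, 12.95, 119 and 109.8 CPM, 8.93-fold lower. ANLN, which ties the contractile ring to the membrane, was 2.86-fold lower at 291, 102, 305 and 280.0 CPM, and TPX2, which activates AURKA on the spindle, 2.56-fold lower at 193, 70.3, 184 and 166 CPM. PRC1, which bundles the central spindle, lay apart from these at 9.19, 11.6, 9.03 and 9.72 CPM. Its log2 ratio of 0.30 became -0.12 with plain CPM.

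Over all members, library 2 lay outside the range of the other 3 libraries for 57 of 58. It was the lowest for 36 (62.1%) and the highest for 21 (36.2%), and CENPT was the exception. Among the 12453 genes whose mean reached 1 CPM, library 2 was the lowest for 48% and the highest for 43.8%. Lying outside the other libraries was therefore usual in this table. The median log2 ratio of the members was -0.44, against -0.067 over all genes, and the ratios ran from -3.93 for TTK to 1.94 for CENPM. Their middle 50% ran from -1.41 to 0.65, and that of all genes from -1.08 to 0.79. A log2 ratio of -1 or lower was reached by 19 members (32.8%) against 26.9% of all genes, and of 1 or higher by 9 members (15.5%) against 19.3%. Dixon's gap test, run here on CPM and not on logs, asks whether 1 value lies far from the other 3. By it library 2 lay apart as the lowest for 9 members (15.5%, against 11.2% of all genes) and as the highest for 9 (15.5%, against 21.8%). Whether these shares hold on a log scale was not tested. Libraries 1, 3 and 4 lay apart for no member, against 0.779% of all genes. These shares were not tested, since a library singled out for standing apart has no replicate.

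The split depended in part on scaling. With plain CPM, 39 members were lowest and 15 highest in library 2, against 59.9% and 31.4% of all genes. By Dixon's test the numbers became 16 lowest and 6 highest, against 16.7% and 11.4% of all genes, and the medians became -0.88 for the members and -0.49 for all genes. The members' median thus lay 0.37 to 0.39 log2 units under that of all genes with either scaling. A change of scaling shifts the ratios of nearly all genes in library 2 alike, so this gap could hardly change. The sign of 5 members changed with plain CPM, namely AURKA, CENPT, FZR1, PLK3 and PRC1, and none did with DESeq2 size factors. In library 2 the integrated stress response list summed to 1502 CPM, against 687 to 712 CPM in the others, led by DDIT3 at 711 CPM. With plain CPM the sums were 1192 CPM and 741 to 768 CPM. Library 2 was highest for 5 of the 7 matched genes with TMM and for 4 with plain CPM, against 43.8% and 31.4% of all genes. ATF3 was lower in library 2, with a log2 ratio of -0.61. The part of these shifts in the members' values was not tested.

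**Figure D2:**
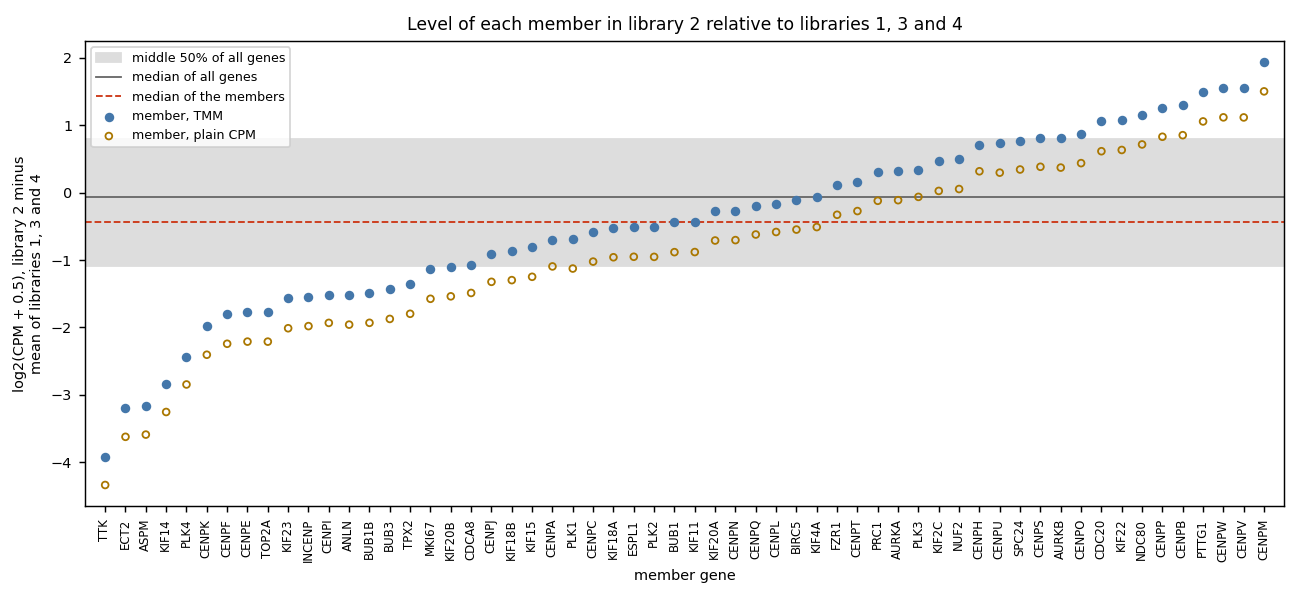
Points give, for each of the 58 members on the horizontal axis, the difference in log2(CPM + 0.5) between library 2 and the mean of libraries 1, 3 and 4, with TMM (filled) and plain CPM (open); the grey band is the middle 50% of all genes, and lines give the medians. Members range from -3.93 (TTK) to 1.94 (CENPM), and their median of -0.44 lies under the -0.067 of all genes.

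Sampling noise gives a smaller relative spread at higher counts, and the members were counted more deeply than genes at large. Their median level averaged 5.47 log2 units over libraries 1, 3 and 4. That of the 12453 genes with a mean of 1 CPM or more averaged 4.47. No comparison at matched counts was made, so lower spreads are not read as a trait of the members. The median coefficient of variation of the members over libraries 1, 3 and 4 was 6.98%, against 8.85% over all genes. Of the members, 39 of 58 (67.2%) lay under 10%, against 56.1% of all genes. The median biological coefficient of variation that edgeR fitted to the members was 10.1% without library 2, against 12.3% over 12167 genes, and 39.0% against 38.3% with it. A highest library more than 1.5 times the lowest among libraries 1, 3 and 4 was found for 4 members (6.90%), against 11.6% of all genes. The 4 were NDC80 (2.70-fold), CENPT (2.07-fold), TTK (1.97-fold) and CENPP (1.63-fold).

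These 4 did not share a pattern. NDC80 was high in library 3 alone of the 3, TTK was highest in library 1 and lowest in library 4, CENPT was low in library 1, and CENPP was high in library 1. CENPT, the inner kinetochore arm that also recruits the NDC80 complex, measured 10.01, 17.2, 17.1 and 21.2 CPM. CENPP, of the CENPO subcomplex, measured 14.06, 25.7, 8.45 and 9.50 CPM. In counts, NDC80 had 470, 1099, 1302 and 484 and TTK 2334, 74, 1753 and 1188. Since the counts are estimates that share reads among similar transcripts, assignment error adds to sampling noise, and its part was not tested.

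**Figure D3:**
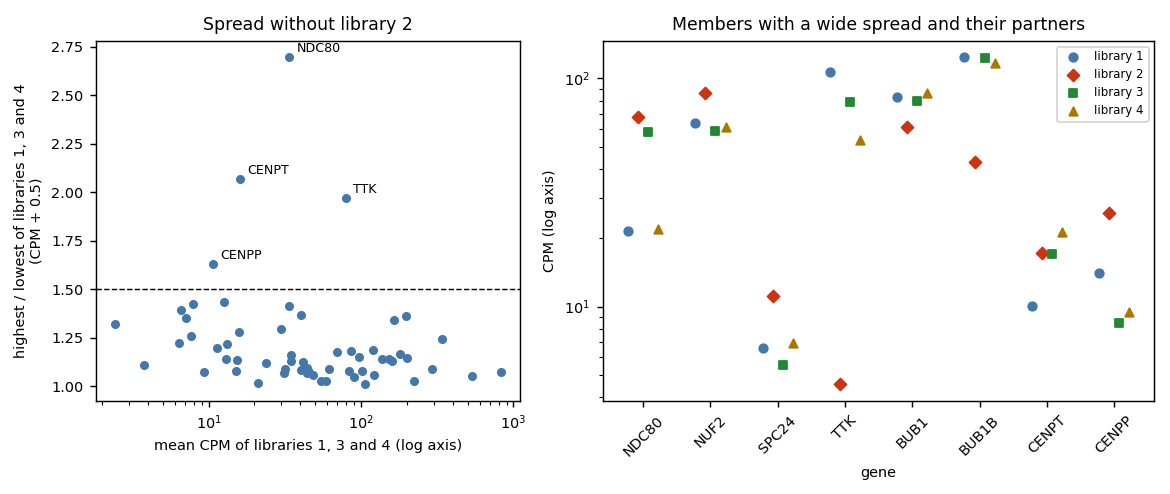
The left panel plots, for each of the 58 members, the highest over the lowest level among libraries 1, 3 and 4 against their mean CPM (log axis), with a dashed line at 1.5; the right panel gives the CPM (log axis) of the 4 members above that line and of partner genes in each library. NDC80 splits libraries 2 and 3 (67.8 and 58.5 CPM) from 1 and 4 (21.4 and 21.9 CPM), whereas NUF2 stays between 58.7 and 86.5 CPM.

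Ratios within a library are free of scaling. Their change between libraries is free of transcript length if length acts alike in every library, which was not tested. Of 12 pairs of partners or relatives, 11 could be formed, as SPC25 was not matched. Securin over separase (PTTG1 over ESPL1) had log2 ratios of 1.11, 3.16, 1.10 and 1.24 in libraries 1 to 4, a shift of 2.02 in library 2. PLK1 over PLK4 shifted by 1.75, BIRC5 over INCENP by 1.44, BUB1 over BUB1B by 1.05, CDC20 over FZR1 by 0.95 and KIF20A over KIF20B by 0.83. PLK2 over PLK3 shifted by -0.84, AURKA over AURKB by -0.48 and KIF18A over KIF18B by 0.34. For these 9 pairs library 2 lay outside the other libraries. CENPE over CENPF was the steadiest in library 2, with a shift of 0.03 and ratios of -1.34, -1.15, -0.92 and -1.28. CENPE and CENPF were lower there by similar folds, 3.42 and 3.48. For NDC80 over NUF2 the ratios were -1.56, -0.35, -0.004 and -1.46, and library 3 was the highest.

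**Figure D4:**
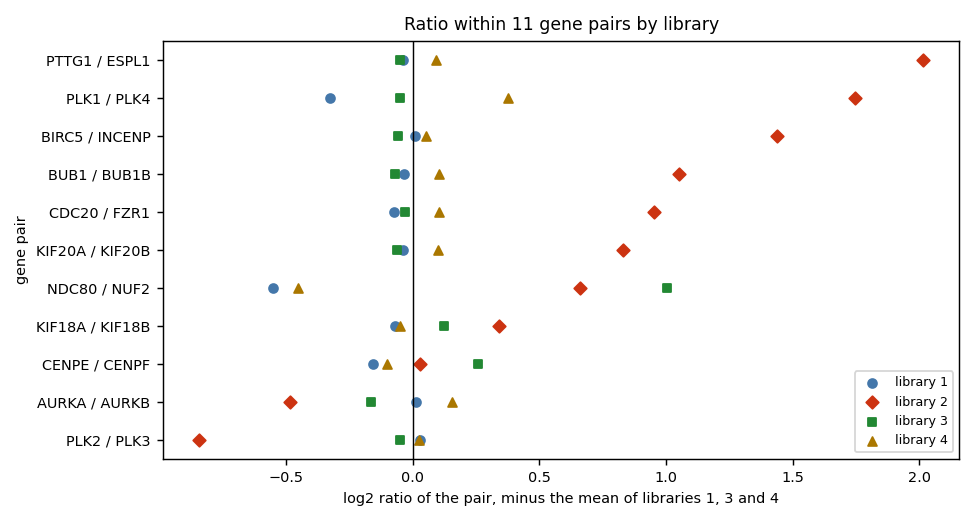
Each marker is the log2 ratio of a pair of members in 1 library, after subtracting the mean ratio of libraries 1, 3 and 4, so that 0 on the horizontal axis is that mean. Library 2 (red diamonds) lies from -0.84 (PLK2 over PLK3) to 2.02 (PTTG1 over ESPL1).

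Other genes of the mitotic machinery were expressed as fully as the members. Every matched gene reached 1 CPM in every library in the lists of MIS12 and KNL1 complexes (5 genes), the SKA, RZZ and Spindly group (7), CENPA loading (2), cohesin (11), condensin (8), the anaphase-promoting complex (12), augmin and the gamma-tubulin complex (14), CDK1 and its regulators (8) and the FOXM1, B-MYB and MuvB regulators (10, or 9 with plain CPM). In these lists, genes with very different values in library 2 again stood side by side. For cohesin, the ring that holds sister chromatids together, library 2 was lowest for all 11 genes, against 48% of all genes, with log2 ratios from -4.27 to -0.55 and a median of -1.19. Both genes of CENPA loading were lowest there as well. The cohesin subunit gene RAD21 measured 355, 184, 364 and 352 CPM, and STAG1, which can take the place of STAG2 in the ring, 61.5, 2.10, 58.04 and 34.1 CPM. The anaphase-promoting complex had a median of 0.43 and library 2 highest for 9 of 12, against 43.8% of all genes. With plain CPM the median was -0.011 and library 2 was highest for 5, against 31.4% of all genes. Its E2 enzyme UBE2S measured 43.4, 171, 43.1 and 49.6 CPM, and its largest subunit gene ANAPC1 117, 29.6, 123 and 114 CPM.

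The medians of mitotic entry regulators and of replication genes in library 2 lay above that of all genes, and that of the members below it, with TMM and with plain CPM. A change of scaling shifts the ratios of nearly all genes in library 2 alike. The order of these medians could therefore hardly differ between scalings, and its agreement is no separate evidence. CDK1, the kinase of mitotic entry, measured 101, 98.3, 106 and 103 CPM, and CCNB2, one of its cyclins, 158, 301, 160.1 and 169 CPM. The list of CDK1 and its regulators had a median log2 ratio of 0.05 in library 2, and -0.39 with plain CPM. The 15 matched DNA replication genes had a median of 0.08, and -0.37 with plain CPM, between -0.67 for CDC6 and 1.85 for GINS2 with TMM. The summed level of the replication list was 821, 1033, 883 and 897 CPM with TMM, highest in library 2, but 886, 819.7, 959 and 966 CPM with plain CPM, lowest there. The members' sum was lowest in library 2 with both scalings, at 3498 CPM against 5127 to 5398 CPM with TMM. FOXM1, the transcription factor of the G2 and M programme, measured 98.04, 55.3, 95.6 and 103 CPM, and MYBL2, which works with it, 54.2, 112, 59.8 and 62.0 CPM. With 1 library of this kind, these differences between lists have no replicate and were not tested.

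**Figure D5:**
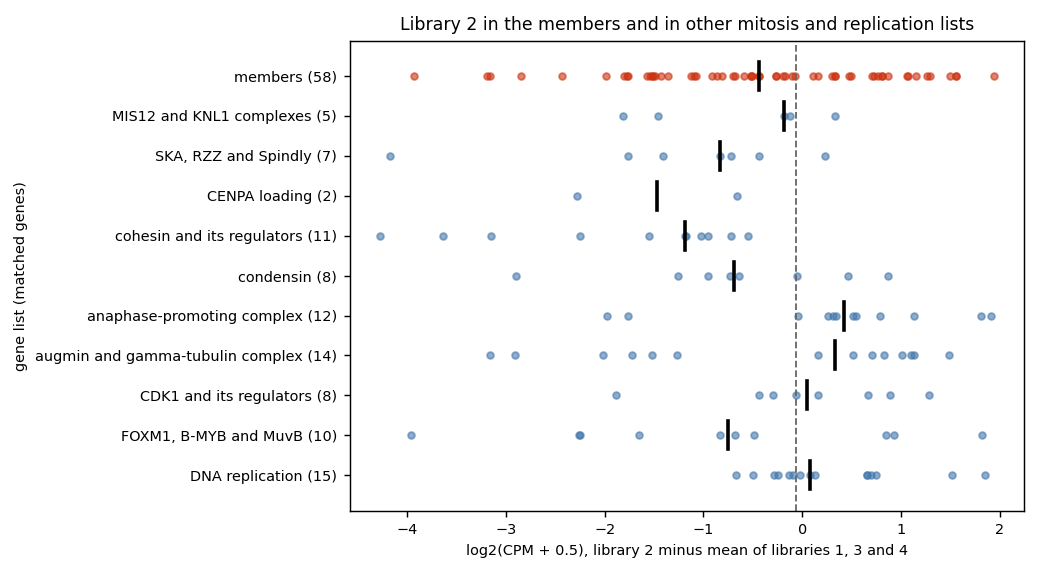
Points give the log2(CPM + 0.5) difference between library 2 and the mean of libraries 1, 3 and 4 for each matched gene, with a black bar at each list's median and a dashed line at the median of all genes (-0.067). The members (red) have a median of -0.44, cohesin -1.19, the anaphase-promoting complex 0.43 (-0.011 with plain CPM) and DNA replication 0.08 (-0.37 with plain CPM).

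Meiosis genes served as a counterpart, since dividing somatic cells are not known to need them. None of the 10 matched genes reached 1 CPM in every library, and 6 stayed below it in every library. SMC1B, the meiotic cohesin subunit, and HORMAD2 had no count. STAG3, another meiotic cohesin subunit, was the highest at 1.41, 1.97, 0.45 and 0.99 CPM. Without any 1 library the list still had no expressed gene. The summed level of the 10 genes lay between 4.13 and 5.61 CPM, against at least 3498 CPM for the members.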

How the data were processed

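The authors deposited 1 table of estimated counts, as whole numbers, for 21314 Ensembl rhesus genes in 4 libraries. Per the submitters' processing notes, Salmon and DESeq2 were used, with no version or role stated. Genome build, annotation and library preparation were not given in the sources used here. Rows were paired with symbols through a table of current Ensembl identifiers (14654 rows matched; the 6660 others held 13.1% to 21.7% of a library's counts).

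Counts were scaled with TMM in edgeR 4.0.16 (R 4.3.3) and given as CPM; log2 values used a pseudocount of 0.5. Dispersions were fitted with edgeR on the 12167 genes kept by filterByExpr (minimum count 10). Intervals cover counting error only. The code was tested on simulated counts for 21314 genes: 200 genes set to a log2 ratio of -2 in library 2 were recovered at a median of -1.85. A dispersion of 0.04 was recovered as 0.0397 with library 2 left out. Only those 200 genes were changed in the simulated library 2. The check thus cannot tell how scaling fared with the table-wide shift of the real one. DESeq2 1.42.0 size factors, plain CPM, other thresholds and leaving out each library were the alternatives.

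The members, roles, pairs and 18 lists were chosen with earlier results of these data known. Every matched member could be named; of other lists, the highest 2, the lowest and genes below 1 CPM. MYBL2, CDK1, STAG1, UBE2S, CDC6, GINS2, BAX, ZMAT3 and HAUS1 fall outside that rule and were picked with their values in view. The planned tests of pairs were not made, and the planned length and promoter descriptions were not run, because no transcript lengths or sequences were used here. Strandedness is not given, so overlapping genes cannot be told apart. A library was taken as lying apart by Dixon's gap test (0.829 for 4 samples). The test took single genes as CPM without logs, and pairs as log2 ratios.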

Additional observations from a re-analysis of the deposited data

Results flagged for a closer look

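Dixon's gap test was run on 71 values in 4 libraries, and in 24 of them library 2 lay apart from the other 3; chance gives about 1 in 20, and values that share a library are not independent. No other library lay apart for any member. Of the 58 members, 18 were such cases, 9 with library 2 lowest (15.5%, against 11.2% of all genes whose mean reached 1 CPM) and 9 with library 2 highest (15.5%, against 21.8%). With plain CPM the numbers were 16 lowest and 6 highest, against 16.7% and 11.4% of all genes. Single genes were entered as CPM and not as logs.

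Library 2 was low, in CPM, for TOP2A (242), PLK2 (377), KIF20A (185), ANLN (102), BUB1B (42.9), KIF15 (30.7), INCENP (19.7), ECT2 (14.5) and CENPI (4.93). It was high for CDC20 (317), PTTG1 (198), KIF2C (147), CENPV (120.4), CENPB (109), AURKB (60.9), KIF22 (50.5), CENPM (48.98) and CENPW (39.7). With plain CPM the log2 ratio of KIF2C fell from 0.47 to 0.02. Library 2 was low for the members' median level (5.07 log2 units) and for the members' share of counts (0.278%). It was also the lowest for the median of all rows with a count (2.80 log2 units). Within pairs, its log2 ratio was high for PTTG1 over ESPL1 (3.16), BIRC5 over INCENP (2.05) and BUB1 over BUB1B (0.50), and low for PLK2 over PLK3 (6.14). TTK, whose 15.2-fold lower level was the farthest, was not among them because libraries 1, 3 and 4 were themselves spread.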

How the results depend on the processing

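The count of 58 expressed members held at 0.5 CPM, with plain CPM, with DESeq2 size factors and without any 1 library, and was 53 at 5 CPM. Without 1 library in turn, and with the rest scaled again, the members' median level ran from 5.30 to 5.58 log2 units, the highest without library 2 (5.47 when the scaling of 4 libraries is kept), and their median biological coefficient of variation from 10.1% to 47.8%, the lowest without library 2; it was 41.02% with plain CPM. The median ratio in library 2 was -0.88 with plain CPM, -0.43 with DESeq2 size factors and between -0.45 and -0.44 without library 1, 3 or 4, an alternative chosen after seeing the data. AURKA over AURKB turned from -0.11 to 0.016 without library 2, within a range of -0.20 to 0.016 over the libraries left out; both values lie inside its SD of 0.28. No other pair changed sign. Without library 2 the endothelial and melanocyte lists each had 2 expressed genes in place of 1 (range 1 to 2). With plain CPM, LIN54 left the FOXM1, B-MYB and MuvB list (9 of 10 expressed) and the retinal pigment epithelium list had 2 in place of 3. Of the alternative means of single members, 12 moved by more than 1 SD and 336 did not. Leaving out 1 of 4 values cannot by itself move a mean by 1 SD. For those alternatives a move could arise only with the renewed scaling, and the absence of one is no sign of stability. The mean of TTK was 44.5 CPM without library 1 and 85.9 CPM without library 2, and was not counted as moved. The cause of the other shifts was not tested. With 1 library of its kind, nothing measured in library 2 has a replicate, and members with few counts, such as CENPH and PLK3, carry the widest counting limits. No paired analysis was possible because there is 1 group.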

Other observations

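Kinesins that carry cargo or serve cilia, outside the mitotic set, gave a mixed list. Of 17 matched genes 9 reached 1 CPM in every library, and 11 did without library 2. KIF5B, the widely expressed conventional kinesin, measured 391, 90.9, 398 and 335 CPM, and KIF1C, a motor of vesicle transport, 138, 96.5, 134 and 144 CPM. KIF1A and KIF5A, motors of neurons, stayed below 1 CPM in every library, and KIF26A had no count. Library 2 was the lowest for 11 of the 17 genes, a list that includes genes at or near 0, against 48% of all genes with a mean of 1 CPM or more. The median log2 ratio was -0.59.

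Of 10 p53 target genes, 7 were matched and all 7 were expressed. Their median log2 ratio in library 2 was 0.47, and 0.07 with plain CPM, from -2.24 for ZMAT3 to 1.46 for BAX. In the melanocyte list 1 of 4 matched genes was expressed, PMEL at 36.5 ± 6.34 CPM (SD, n = 4), and TYR had no count.

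HAUS1, a subunit of the augmin complex that branches spindle microtubules, was chosen after its values were seen. It measured 22.9, 35.4, 54.1 and 25.8 CPM, so libraries 2 and 3 exceeded 1 and 4, as for NDC80. No common source of the 2 patterns was tested.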
